A study of Felis catus with 2 samples.

Results

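The genes of melanin synthesis and of the melanosome were examined in RNA from the iridocorneal angle of 2 cats, and the genes were taken by name from a fixed list of 10. Of these, 9 were listed in the deposited table of 32065 loci: TYR, TYRP1, DCT, PMEL, SLC45A2, OCA2, SLC24A5, GPR143 and MITF, each on a single row. MLANA, a melanosome membrane protein, was not analysed here. The dissected tissue held the iridocorneal angle, the ciliary body, and adjacent sclera and trabecular meshwork, so it should contain the pigmented layer of the ciliary epithelium and the melanocytes of the uvea.

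The affected library came from 1 cat with primary congenital glaucoma, aged 2 months, from a colony in which affected animals are homozygous for a frameshift insertion in LTBP2. The normal library came from 1 unrelated, healthy cat of the same age. The colony was founded by Siamese cats, whose coat pattern and pale irides come from a mutation in the tyrosinase gene, and it was later crossed to domestic shorthaired cats. The coat colour, iris colour and TYR genotype of the 2 sequenced cats are not given in the sources used here, and neither is their sex. With 1 library per condition there was no replicate error and no test, so every difference given is between these 2 libraries, and disease cannot be told apart from any other difference between the animals or the dissections.

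Melanin is made inside the melanosome, an organelle related to the lysosome. Tyrosinase oxidises tyrosine and so starts the pathway, and TYRP1 and DCT, its relatives, act on later intermediates. PMEL forms the fibrils on which melanin is laid down, SLC45A2, OCA2 and SLC24A5 move ions across melanosome and related membranes, GPR143 is a receptor of the melanosome that influences its size and number, and MITF is the transcription factor that switches many of these genes on. In the eye these genes are used by cells of 2 origins, the pigmented epithelia, which arise from the optic cup, and the melanocytes of the uveal stroma, which arise from the neural crest. In bulk tissue, fewer pigment cells and less RNA per pigment cell cannot be told apart.

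Pigment genes were abundant in both libraries. TYRP1, DCT and PMEL were the 3 highest in each, and together they held 87.5% of the summed level of the 9 genes in the normal cat and 93.8% in the affected cat. Levels are given in FPKM, the number of sequenced fragments per kilobase of exon and per 1000000 fragments, and each was placed among the 16676 loci that reached 1 FPKM in at least 1 library. TYRP1, DCT and PMEL exceeded 99.0 to 99.4% of those loci in the normal library and 96.2 to 99.3% in the affected library. The lowest of the 9 was OCA2, which exceeded 49.6% of the loci in the normal cat and 40.2% in the affected cat. The summed level of the 9 genes was 2427 FPKM in the normal cat and 1674 FPKM in the affected cat, 1.45-fold lower in the latter.

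**Figure D1:**
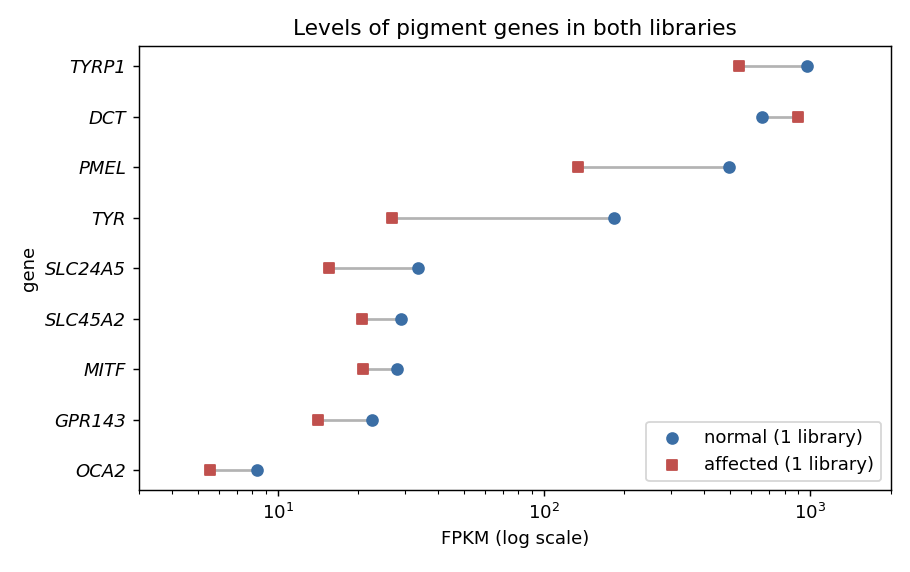
Level of each of the 9 genes in FPKM (log axis), with 1 point for the normal and 1 for the affected library, ordered by the normal value. The affected point lies to the left of the normal point for 8 genes and to the right for DCT, and the longest line is that of TYR, from 182.7 to 26.8 FPKM.

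Among the enzymes, TYR was listed at 182.7 FPKM in the normal cat and 26.8 FPKM in the affected cat, a 6.81-fold lower level. TYRP1, which stabilises tyrosinase and acts later in the pathway, was listed at 969 FPKM in the normal cat and 540 FPKM in the affected cat, 1.80-fold lower. DCT, dopachrome tautomerase, had the opposite direction, with 661 FPKM in the normal cat and 896 FPKM in the affected cat, 1.36-fold higher. The 3 enzymes of this family thus spanned the whole range of the 9 genes: on the scale of log2((affected FPKM + 1)/(normal FPKM + 1)), called the log2 ratio from here on, TYR stood at −2.72, TYRP1 at −0.84 and DCT at 0.44. The TYR locus lies on chromosome D1 of felCat5 from 46302199 to 46407150, TYRP1 on D4 from 40464307 to 40485640, and DCT on A1 from 65551801 to 65587634, and no other listed locus overlapped any of these spans.

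Because both enzymes were read in the same libraries, their ratio does not depend on how the libraries were scaled. In the normal library DCT stood 3.62-fold above TYR, and in the affected library 33.4-fold. TYRP1 was the highest of the 9 genes in the normal library, 1.47-fold above DCT. In the affected library the order was turned, and DCT was 1.66-fold above TYRP1.

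PMEL, the fibril protein, was listed at 493 FPKM in the normal cat and 134 FPKM in the affected cat, which is 3.67-fold lower, with a log2 ratio of −1.87. It held 20.3% of the summed level of the 9 genes in the normal cat and 8.03% in the affected cat. Its locus lies on chromosome B4 from 84908201 to 84932210, and the table gives the same span for DGKA, a diacylglycerol kinase. DGKA was listed at 8.29 FPKM in the normal cat and 9.91 FPKM in the affected cat, far below PMEL in both libraries. The library kit named in the labels does not mark strand, so where exons of the 2 genes overlap, their reads cannot be told apart.

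**Figure D2:**
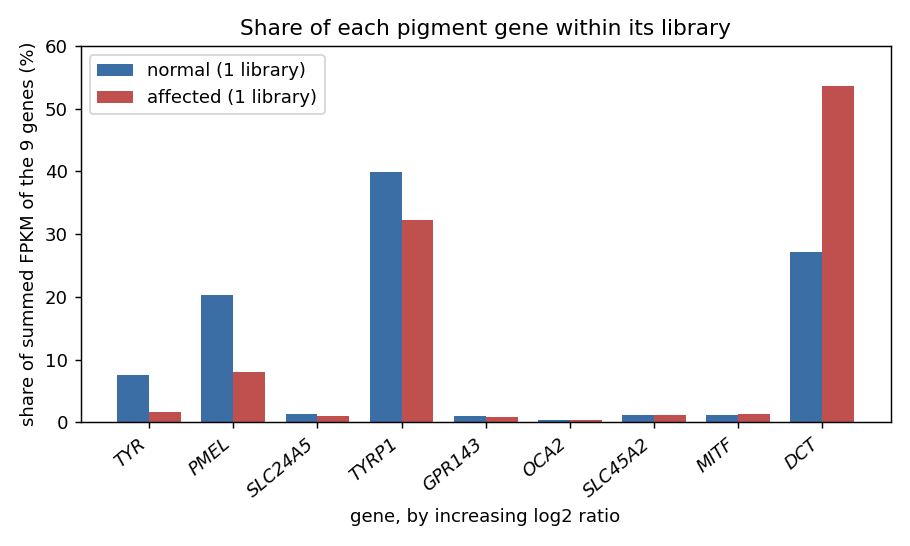
Share of each gene in the summed FPKM of the 9 genes, in percent, with 1 bar per library and genes ordered by their log2 ratio. DCT held 27.2% in the normal cat and 53.5% in the affected cat, while the shares of TYR, PMEL and TYRP1 were smaller in the affected library.

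The 3 transporters were each lower in the affected library, by different amounts. SLC24A5, a potassium-dependent sodium/calcium exchanger, was listed at 33.5 FPKM in the normal cat and 15.6 FPKM in the affected cat, 2.16-fold lower, with a log2 ratio of −1.06. OCA2, a melanosomal anion transport protein, was listed at 8.36 and 5.54 FPKM, 1.51-fold lower. SLC45A2, which influences melanosome pH, was listed at 28.9 and 20.7 FPKM, 1.40-fold lower. SLC24A5 lies on chromosome B3 from 57610194 to 57667250, a span that the table also gives for MYEF2, a repressor of transcription. MYEF2 was listed at 15.0 FPKM in the normal cat and 7.89 FPKM in the affected cat, 1.90-fold lower, so both names on this span were lower in the affected library. As for PMEL and DGKA, reads from overlapping exons of the 2 genes cannot be told apart without strand. OCA2 lies on B3 from 26873719 to 27361177 and SLC45A2 on A1 from 211935854 to 211968041, with no other listed locus on either span.

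GPR143, the melanosome receptor, was listed at 22.5 FPKM in the normal cat and 14.1 FPKM in the affected cat, 1.59-fold lower, and its locus lies on chromosome X from 6470617 to 6495329. MITF was listed at 28.0 and 20.8 FPKM, 1.35-fold lower, the smallest difference among the 8 genes that were lower. The MITF locus lies on A2 from 36368719 to 36460888. MITF has several promoters, used in different cell types, and the deposited value is a sum over the locus, so the forms of melanocytes and of pigmented epithelia were not separated here.

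Of the 9 genes, 8 had a log2 ratio below 0, against 50.3% of all loci past the minimum. Counts of genes past 2-fold were made on the log2 ratio, whereas the fold given for a single gene is the plain ratio of its FPKM values. TYR, PMEL and SLC24A5 were at least 2-fold lower, 3 of 9, beside 8.75% of all loci. None was at least 2-fold higher, beside 8.14% of all loci. The median log2 ratio was −0.63 over the 9 genes and −0.0047 over all loci, of which the middle 50% lay between −0.43 and 0.40. TYR lay in the lowest 0.678% of all loci, with 113 loci below it, and PMEL in the lowest 2.12%. SLC24A5 stood at percentile 7.83 and TYRP1 at 11.7, whereas GPR143, OCA2, SLC45A2 and MITF stood between percentiles 17.1 and 25.9, and DCT at 76.9. The 9 genes share regulators and cells, so they are not independent points.

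**Figure D3:**
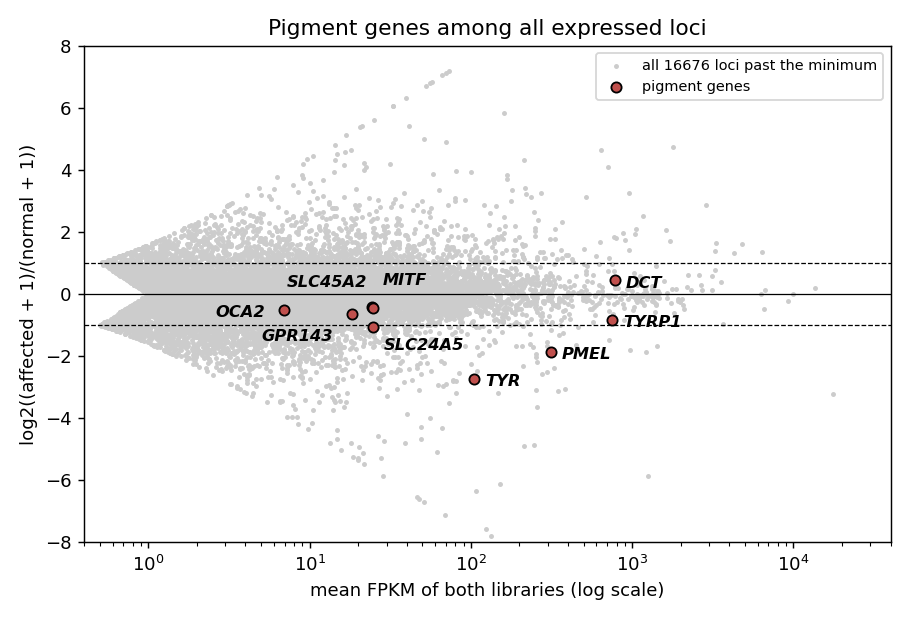
Log2 ratio against mean FPKM (log axis) for all 16676 loci past the minimum (grey, 8 loci outside the vertical range) and for the 9 genes (red), with dashed lines at a 2-fold difference. TYR, PMEL and SLC24A5 lie below the lower dashed line, TYR lowest at −2.72, and DCT is the only one above 0.

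The depth behind these values was high. Low values at unnamed loci were whole multiples of the value of 1 fragment, within 0.03 of a whole number at 96.9% of 1477 loci in the normal cat and at 95.6% of 1208 loci in the affected cat, against 6% if values fell anywhere, a share that makes no allowance for the scale having been fitted to these values. The scale was 71180000 fragments in the normal cat and 67580000 in the affected cat. On that scale TYR corresponded to 13002 fragments per kilobase of transcript in the normal cat and 1812 in the affected cat, and OCA2, the lowest gene, to 595 and 375. For a transcript with an effective length of 1 kilobase, the 95% counting interval of the log2 ratio without pseudocount was −2.84 to −2.70 for TYR, −1.91 to −1.84 for PMEL and −1.214 to −1.004 for SLC24A5. It was 0.42 to 0.46 for DCT, −0.53 to −0.33 for MITF and −0.78 to −0.41 for OCA2. None of the 9 intervals held 0, but they cover counting error only, not the variation between cats or dissections, nor the way fragments were shared out among loci.

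The order of the levels was nearly shared by both libraries. In the normal library it ran TYRP1, DCT, PMEL, TYR, SLC24A5, SLC45A2, MITF, GPR143 and OCA2. In the affected library it ran DCT, TYRP1, PMEL, TYR, MITF, SLC45A2, SLC24A5, GPR143 and OCA2. SLC45A2 and MITF were neighbours in both, 1.03-fold apart in the normal cat and 1.004-fold apart in the affected cat, and at an effective length of 1 kilobase their counting intervals did not separate them. SLC24A5 moved from the 5th to the 7th place, and TYR, at the 4th place in both, came within 1.29-fold of MITF in the affected library.

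Other genes of the pigment pathway were taken from 6 lists, of which 58 of 77 genes were listed and past the minimum. At least 2-fold lower were 8 of these genes, or 13.8%, beside 8.75% of all loci, and at least 2-fold higher 4, or 6.90%, beside 8.14%. Their median log2 ratio was −0.15. Among genes with a mean of 5 FPKM or more, 3 genes were lower and 3 higher. The shares of all loci were 6.46% and 7.62% there. The size of this smaller set of pathway genes is not given, so its counts cannot be compared with those percentages. With a pseudocount of 0.1 FPKM, 13 of the 58 genes were lower and 5 higher, beside 13.0% and 11.9% of all loci. With each library brought to the same sum, 11 genes were lower and 4 higher. The shares of all loci were 10.6% and 8.54% at that setting, where the number of pathway genes used is not given. The general machinery of the melanosome had medians near 0. In the list of melanosome biogenesis genes, the BLOC, AP-3 and Hermansky-Pudlak complexes that sort cargo to the organelle, 12 of 19 genes were used, their median log2 ratio was 0.06, and none was 2-fold lower. DTNBP1, a subunit of BLOC-1, was 2-fold higher, with 13.3 FPKM in the normal cat and 29.3 FPKM in the affected cat. AP3M1, an AP-3 subunit, was 2.04-fold lower by the plain ratio, with 30.5 and 14.9 FPKM, and just short of 2-fold on the log2 ratio. In the list of melanosome transport genes and pigment Rabs, 10 of 11 genes were used, with a median of −0.13. RAB38, which brings TYR and TYRP1 to the melanosome, was the highest of that list, with 176 FPKM in the normal cat and 116 FPKM in the affected cat. MREG, melanoregulin, was the one gene of the list past 2-fold, with 11.2 and 32.7 FPKM, and MYO7A, a myosin of melanosome transport in pigmented epithelium, was 2.16-fold higher by the plain ratio alone, with 4.90 and 10.6 FPKM. RAB17 was 2.08-fold lower by the plain ratio alone, with 2.71 and 1.30 FPKM.

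Further genes linked to melanosomes and melanin had a median of −0.18 over the 9 of 13 used. SLC24A4, a relative of SLC24A5, was listed at 2.20 FPKM in the normal cat and 6.65 FPKM in the affected cat, and it was the one gene of this list past 2-fold. SLC7A11, a cystine transporter, was 2.20-fold lower by the plain ratio alone, with 6.22 and 2.83 FPKM. GPNMB, a relative of PMEL that macrophages also express, was listed at 191 and 349 FPKM, 1.83-fold higher in the affected library, where PMEL was 3.67-fold lower. CD63, a tetraspanin that sorts PMEL in the early melanosome and is found in lysosomes of many cells, was listed at 686 and 556 FPKM.

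Ligands and receptors of melanocytes stood at low levels for the most part. In the list of pigment cell signalling 5 of the 11 genes used, of 12, were at least 2-fold lower, beside 8.75% of all loci, and the median was −0.74. Of these 5 only EDNRB had a mean of 5 FPKM or more, and over the genes of the list with such a mean the median was −0.42. KITLG, the ligand of the receptor KIT, was listed at 7.66 FPKM in the normal cat and 0.792 FPKM in the affected cat, 9.67-fold lower, and KIT itself at 2.97 and 0.654 FPKM. EDNRB, the endothelin receptor needed by neural crest melanocytes, was listed at 54.7 and 12.7 FPKM, 4.32-fold lower, and ERBB3, a neuregulin receptor of neural crest cells, at 4.68 and 1.29 FPKM. FGFR1, a fibroblast growth factor receptor of many cell types, was the one gene of this list at least 2-fold higher, with 59.0 and 188 FPKM. EDNRB and KITLG are also used by vascular and stromal cells.

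Regulators of the melanocyte lineage had a median of −0.83 over the 8 of 10 used. SNAI2 was listed at 25.4 FPKM in the normal cat and 5.57 FPKM in the affected cat, LEF1 at 5.33 and 1.46 FPKM, and ZEB2 at 17.9 and 8.04 FPKM, each at least 2-fold lower, and all are expressed beyond melanocytes. SOX9, a relative of SOX10, was 2.095-fold lower by the plain ratio alone, with 7.13 and 3.40 FPKM. SOX10, which activates MITF in neural crest cells, was listed at 6.69 and 4.71 FPKM, and PAX3, its partner, at 0.983 and 1.01 FPKM. SOX10 was thus 1.42-fold lower, beside 1.35-fold for MITF, while PAX3 was at the edge of the minimum in both libraries.

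Regulators of the pigmented epithelium and the MITF family had a median of 0.34 over the 8 of 12 used, with 6 above 0 and none past 2-fold on the log2 ratio. TFEC, a relative of MITF, was 3.30-fold lower by the plain ratio, but at low levels of 1.96 FPKM in the normal cat and 0.595 FPKM in the affected cat. OTX2, which acts with MITF in pigmented epithelia, was listed at 84.2 FPKM in the normal cat and 63.4 FPKM in the affected cat. These levels were 12.6-fold and 13.5-fold above SOX10. Which cells held OTX2 was not tested, so the ratio to SOX10 does not measure the shares of pigmented epithelium and melanocytes. NR2F2 was listed at 0 in both libraries, which is not read as absence. Markers of the retinal pigment epithelium, a pigmented layer outside the described dissection, had a median of −0.0083 over all 12, and 6 were lower and 6 higher. RPE65, the retinoid isomerase, was listed at 53.2 and 26.1 FPKM, and STRA6, the vitamin A receptor, at 22.1 and 5.58 FPKM, both at least 2-fold lower. BEST1, a chloride channel, was 2.06-fold lower by the plain ratio alone, with 5.45 and 2.64 FPKM, and SLC16A8, a lactate transporter, 2.21-fold higher by the plain ratio alone, with 1.957 and 4.33 FPKM. The summed level of these 12 markers was 874 FPKM in the normal cat and 1382 FPKM in the affected cat, most of it TTR. Without TTR the sums were 370 and 391 FPKM.

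**Figure D4:**
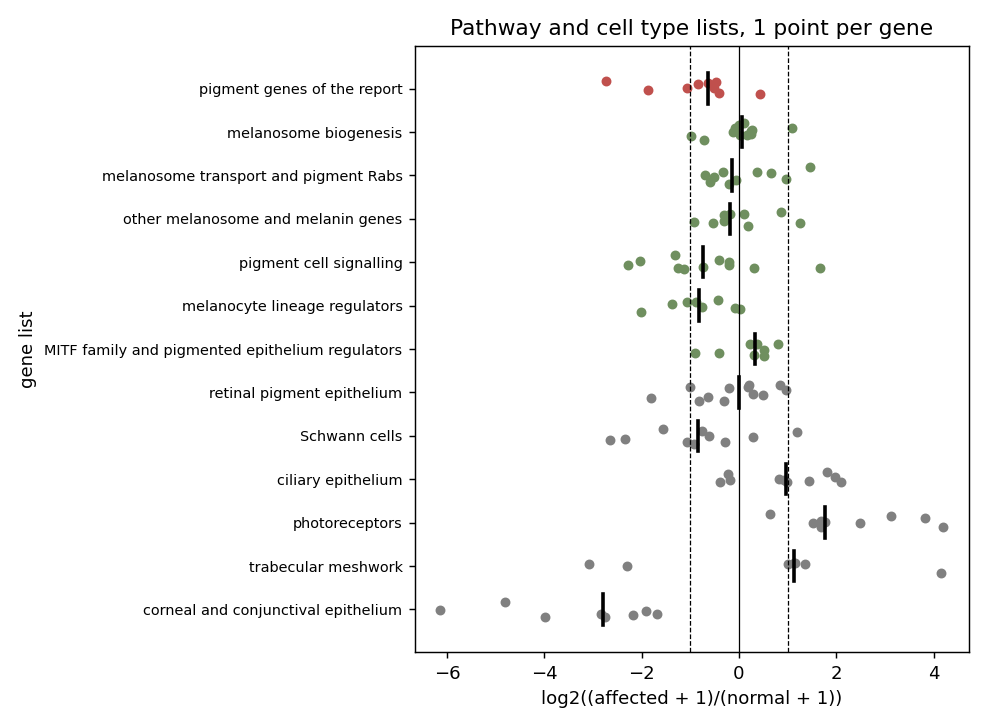
Log2 ratio of each gene past the minimum in the 9 pigment genes (red), the 6 pathway lists (green) and the 6 cell type lists (grey), with a black bar at each median and dashed lines at a 2-fold difference. The medians of melanosome biogenesis and retinal pigment epithelium lie near 0, those of pigment cell signalling and the melanocyte lineage below it, and that of corneal and conjunctival epithelium lowest at −2.79.

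Markers of other cell types differed between the libraries as well, and their counts stand beside 8.75% of all loci at least 2-fold lower and 8.14% higher. Corneal and conjunctival epithelium had 8 of 8 markers at least 2-fold lower, with a summed level of 605 FPKM in the normal cat and 27.0 FPKM in the affected cat. Schwann cells, which share SOX10 and ERBB3 with melanocytes, had 4 of 10 markers at least 2-fold lower and 1 higher, a median of −0.84 and sums of 162 and 114 FPKM, or 137 and 55.3 FPKM without MBP, a myelin protein and the highest of them. Ciliary epithelium had 4 of 10 markers at least 2-fold higher and none lower, a median of 0.96 and sums of 11793 and 14560 FPKM. Most of these sums was CRYAB, a small heat shock protein, at 10017 and 8592 FPKM. The other markers summed to 1776 and 5967 FPKM. The ciliary list was not split by layer, so it does not measure the pigmented layer. Photoreceptors, which lie outside the described dissection, had 8 of the 9 used at least 2-fold higher, with sums of 412 and 1672 FPKM. Of the 7 trabecular meshwork markers, 5 were at least 2-fold higher and 2 lower, with sums of 908 and 899 FPKM. These near-equal sums held markers that differed in opposite directions, and whether the same tissue was sampled was not tested. No marker of these lists was listed at 0 in either library. The part of these differences in the values of the pigment genes was not tested.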

How the data were processed

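Polyadenylated RNA of the iridocorneal angle was sequenced by the authors from 1 affected and 1 normal cat. For alignment the authors used TopHat 2.0.9, the felCat5 genome build and gene predictions of Ensembl. Cufflinks 2.1.1 then gave FPKM per locus, and these deposited FPKM values were used as they stand. Filters on loci and the scaling between the libraries are not given in the sources used here. Since the unit is not a count, tests for counts do not apply.

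Names were matched exactly, and of rows sharing a name the one with the higher mean was kept. Log2 ratios used a pseudocount of 1 FPKM, which understates differences of low genes, and loci with at least 1 FPKM in 1 library. A locus was set apart at a 2-fold difference. The value of 1 fragment was recovered from steps between low values at unnamed loci, with the locus taken as the transcript. This step was tested on simulated whole fragments without noise and with the same assumption, so the simulation does not test that assumption. Coordinates are as the table gives them.

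The genes, the 6 pathway lists and the 6 cell type lists were chosen with earlier results of these data known. From each list the text names genes past 2-fold, at most the 3 highest and 3 lowest, and SOX10, KIT, PAX3, OTX2 and RPE65; 1 further gene of this rule is not reported here. Of the 5 cell type lists other than retinal pigment epithelium, only CRYAB and MBP are named in the comparisons, and KRT12 stands in the closing section. RAB38, AP3M1, MYO7A, SLC7A11, TFEC, RAB17, BEST1, SLC16A8, SOX9, KRT12, KERA, LUM, DCN, GPNMB, CD63, TTR, CRYAB, MBP, NR2F2, DGKA and MYEF2 were named after their values were seen or for sharing a span. Alternatives were a pseudocount of 0.1 FPKM, libraries rescaled to a sum of 1000000 FPKM or to a median log2 ratio of 0, no minimum, a minimum of 5 FPKM on the mean, 4-fold in place of 2-fold, and, for the 9 genes alone, the mean log2 ratio rather than the median. The tools were pandas 2.3.3, numpy 2.4.6 and matplotlib 3.10.9 under Python 3.11.15.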

Additional observations from a re-analysis of the deposited data

How the results depend on the processing

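The log2 ratios of the 9 pigment genes were recomputed with a pseudocount of 0.1 FPKM, with each library brought to a sum of 1000000 FPKM and with the median of all loci set to 0. None of the 27 values changed sign, and the largest shift was 0.071. At a 4-fold threshold 1 of the 9 genes, TYR, was lower and none higher, beside 1.79% and 1.68% of all loci, against 3 lower at 2-fold, and the mean log2 ratio of the 9 genes was −0.90, against a median of −0.63. Among the pathway lists, 13 genes were at least 2-fold lower and 5 higher with a pseudocount of 0.1 FPKM, and 3 lower and 3 higher when the mean had to reach 5 FPKM, against 8 and 4. Over all loci the shares at least 2-fold lower also moved, to 13.0% and 6.46%, against 8.75%, and the shares at least 2-fold higher to 11.9% and 7.62%, against 8.14%, since the smaller pseudocount enlarges the ratios of low genes and the higher minimum removes them. Among all loci listed, the median percentile of the 9 levels was 91.9 in the normal cat and 86.5 in the affected cat, against 84.4 and 74.0 among loci past the minimum, because the minimum removes low loci. Of 60 recomputed list medians, 11 moved by at least 0.1 and 2 changed sign. The alternatives for sequence motifs were not run, as no sequences were used here. No paired analysis was possible because there is a single library per condition. Depth did not separate the levels of SLC45A2 and MITF in either library, and with no replicates the spread between cats is unknown.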

Other observations

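The place of TYR among abundant loci was examined further. Of 701 named loci with at least 100 FPKM in the normal library, 29 had a lower log2 ratio than TYR, and 6 of these were listed at 0 in the affected library. Several of the others are genes of the corneal surface and of stroma, among them KRT12, a corneal keratin, with 299 FPKM in the normal cat and 3.27 FPKM in the affected cat, KERA, the corneal proteoglycan keratocan, with 265 and 0.190 FPKM, LUM, lumican, with 479 and 15.6 FPKM, and DCN, decorin, with 686 and 82.2 FPKM. None of these 4 belongs to the pigment pathway. The limit of 100 FPKM and these genes were chosen after the values had been seen, and a limit set on the normal library alone favours loci that were lower in the affected one.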
